A study of Mus musculus with 15 samples.

Results

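The genes described here were 32 genes of protein folding in the endoplasmic reticulum (ER) and of the unfolded protein response, followed across 5 groups of cultured mouse fibroblasts. A probe was taken as a member where its name in the scanner files was a RefSeq transcript of a listed gene. This gave 50 probes for the 32 genes, of 56605 distinct probes and 23462 named genes on the array, and all 50 probes were bright enough to be tested. Each gene was read from a main probe, the brightest of its probes over all arrays, and other probes are given beside it where they bear on a call. Gene expression was measured on 15 1-colour arrays of mouse embryonic fibroblasts (MEFs), 3 arrays per group. The cells were the established line 3T3 (Balb/c clone A31 in the study's methods), that is, a single line and not primary cells. Control MEFs were untreated. The treated groups received TNFα at 10 ng/ml, TGFß1 at 5 ng/ml, IL-1β at 1 ng/ml, or IL-6 at 20 ng/ml with the soluble receptor sIL-6Rα at 25 ng/ml. The study's text gives 24 h for the arrays of TNFα, TGFß1 and their controls. The labels name 24 or 72 h for the cultures without saying which array had which, so the exposure of the IL-1β and IL-6 arrays is not known here.

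Proteins bound for the cell surface or the extracellular space enter the ER unfolded and are folded there by chaperones of the Hsp70, Hsp90 and lectin families, by protein disulfide isomerases and by prolyl isomerases. When unfolded protein builds up, the sensors IRE1, PERK and ATF6 start the unfolded protein response: XBP1, ATF4 and ATF6 then switch on chaperones, export machinery and ER-associated degradation, and CHOP and its targets follow when the stress lasts. Fibroblasts that make collagen also depend on chaperones devoted to procollagen and on the ER-bound factors CREB3L1 and CREB3L2, relatives of ATF6 that are known for raising secretory capacity in matrix-producing cells.

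Every level is a log2 processed signal minus the array's 75th percentile, so that 0 is the brightness of the 75th percentile probe. Levels of different genes come from different probes and are not set against each other. Arrays carry the number that opens their label, and values are given in the order control 1, 6 and 11, TNFα 4, 9 and 14, TGFß1 2, 7 and 12, IL-1β 5, 10 and 15, and IL-6 3, 8 and 13. A gene was called changed where its q-value was below 0.05 and its fold-change reached 1.5 in either direction. The q-value comes from limma's moderated two-sided test and is adjusted over the 29334 probes tested. The study describes 3 independent experiments, but the labels do not say which arrays share one, so the tests measure the spread between these arrays.

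Between 48.3% and 54.9% of probes per array were well above background. The arrays lay on 2 slides, 8 on the first and 7 on the second, and every group had arrays on both. On the second slide lay control 6, IL-1β 15, IL-6 13, TNFα 4 and 9, and TGFß1 2 and 12. Slide was therefore partly mixed with treatment where TNFα or TGFß1 was compared with control, and was balanced for IL-1β and IL-6 against control. Across the 32 members the difference between slides, averaged over the 5 groups, had a median of -0.08 and a range from -0.50 to 0.38 on the log2 scale. Within the controls, where control 6 alone lay on the second slide, it ran from -0.74 (*Chac1*) to 0.39 (*P3h1*). All 10 fibroblast markers were well above background on all 15 arrays. The leukocyte marker *Ptprc*, the macrophage marker *Adgre1*, 4 of 5 endothelial markers and all 4 skeletal muscle markers were not well above background on any array, whereas *Cd68*, *Csf1r* and *Itgam* were on all 15. Other marker lists moved with treatment. The summed level of 3 adipocyte markers, in units of the 75th percentile signal, was 1.15 to 1.91 in controls, 0.0600 to 0.104 with TNFα and 0.693 to 1.04 with TGFß1. That of 5 epithelial markers was 0.0806 to 0.201 in controls, 0.0639 to 0.114 with TNFα and 0.229 to 0.604 with TGFß1. The part of these shifts in the results given here was not tested, and in RNA from whole cultures fewer cells of a kind and less RNA per cell cannot be told apart.

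Promoter windows from 250 bases before to 50 bases after the start of transcription (RefSeq, GRCm38.p6) were matched by symbol for 28 of the 32 members. *Hyou1*, *Manf*, *Creb3l1* and *Fkbp10* were not matched. The ER stress element, the site through which ATF6 acts with NF-Y, was searched on both strands as an exact CCAAT, then 9 free bases, then CCACG. It was found in 8 of 28 members (28.6%), against 37 of 27025 genes in the table (0.137%). These sites are printed to show which members carry the classical element: 6 chaperones and isomerases, the secreted factor *Creld2* and the ubiquitin ligase *Syvn1*. Each is given 5′ to 3′ on the strand of its gene with 8 bases on either side, and capitals mark the CCAAT and CCACG pieces or, where the element runs the other way, their complements CGTGG and ATTGG.
Hspa5, chr2:34772017-34772051, plus strand, first base of the match 65 bases before the start: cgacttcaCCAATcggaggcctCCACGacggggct
Hsp90b1, chr10:86705630-86705664, minus strand, 212 bases before: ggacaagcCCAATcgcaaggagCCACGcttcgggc
Hsp90b1, chr10:86705525-86705559, minus strand, 107 bases before: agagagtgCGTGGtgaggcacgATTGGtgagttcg
Calr, chr8:84847067-84847101, minus strand, 162 bases before: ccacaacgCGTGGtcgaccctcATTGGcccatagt
Canx, chr11:50325792-50325826, minus strand, 145 bases before: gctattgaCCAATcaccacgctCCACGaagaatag
Pdia6, chr12:17266483-17266517, plus strand, 98 bases before: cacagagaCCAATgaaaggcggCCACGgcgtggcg
Dnajc3, chr14:118937819-118937853, plus strand, 105 bases before: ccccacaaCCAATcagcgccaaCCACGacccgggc
Creld2, chr15:88819512-88819546, plus strand, 126 bases before: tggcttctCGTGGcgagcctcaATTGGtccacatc
Syvn1, chr19:6046524-6046558, plus strand, 44 bases before: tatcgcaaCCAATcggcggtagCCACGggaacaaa

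A second form of the element, ATTGG, 1 free base, CCACG, was found in *Herpud1* alone among the members and in 12 of 27025 genes (0.0444%). The XBP1 and ATF6 core, TGACGTGG, was found in *Sec24d* alone among the members and in 193 genes (0.714%). The C/EBP-ATF element, through which ATF4 acts, was searched as TGATGNAA and was found in 4 members, *Asns*, *Chac1*, *Trib3* and *Herpud1*, against 1219 genes (4.51%). The match in *Trib3* began 14 bases past the start and is not printed. The other sites are printed as above, with the letters of the element in capitals. They show the C/EBP-ATF element of the ATF4 branch in *Asns*, *Chac1* and *Herpud1*. They also show the second form in *Herpud1* and the XBP1 and ATF6 core in *Sec24d*. *Herpud1* thus held elements of both the ATF6 and the ATF4 branch.
Herpud1, second form, chr8:94386369-94386395, plus strand, 52 bases before: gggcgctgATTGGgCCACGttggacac
Herpud1, C/EBP-ATF, chr8:94386309-94386332, plus strand, 112 bases before: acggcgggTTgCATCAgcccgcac
Sec24d, XBP1 and ATF6 core, chr3:123267462-123267485, plus strand, 26 bases before: cgggcgccTGACGTGGcactagca
Asns, C/EBP-ATF, chr6:7693217-7693240, minus strand, 23 bases before: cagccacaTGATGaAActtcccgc
Chac1, C/EBP-ATF, chr2:119351041-119351064, plus strand, 193 bases before: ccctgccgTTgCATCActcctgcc
None of the 4 elements matched in the window of *Xbp1*, *Creb3l2*, *Atf4*, *Ddit3*, *Edem1*, *Serpinh1*, *Fkbp14* or *P3h1*. The same held for *Dnajb9*, *Sdf2l1*, *Pdia3*, *Pdia4*, *P4hb*, *Sel1l* and *Sec61b*. A match is a run of letters and not a measured site, and the absence of a match speaks only of these letters in this window.

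The called members were all higher than control with TGFß1 and all lower with TNFα, and no member was called with IL-1β or IL-6. Other settings added calls in the other direction with TNFα: *Chac1* was called higher with slide and run of label numbers (1 to 5, 6 to 10 and 11 to 15) in the model, and *Trib3* without control 11. With TGFß1, 6 of 32 members were called (18.8%), all higher than control: *Creb3l1*, *Creb3l2*, *Xbp1*, *Fkbp10*, *Sec24d* and *Manf*. Of all probes tested, 17.9% were called with TGFß1, so the share of members called was that of the array, but 7.51% of probes were called higher against 18.8% of members. With TNFα, 3 of 32 members were called (9.38%), all lower: *Creb3l1*, *Fkbp14* and *Dnajc3*. The array-wide share was 10.0% in either direction and 5.96% lower. The median log2 fold-change of the members was 0.34 with TGFß1, beside 0.07 over all probes tested, and -0.08 with TNFα, beside 0.04. A higher fitted level than control was seen for 26 of 32 members with TGFß1 (56.0% of probes) and for 13 of 32 with TNFα (54.5% of probes). The TGFß1 count was the one most open to scaling: with quantile normalization 2 members were called, *Creb3l1* and *Creb3l2*, the median was 0.15 and 23 members were fitted higher. The members called higher were then 6.25% of the list, beside 6.39% of all probes. TNFα and TGFß1 are compared with the same 3 control arrays.

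**Figure D1:**
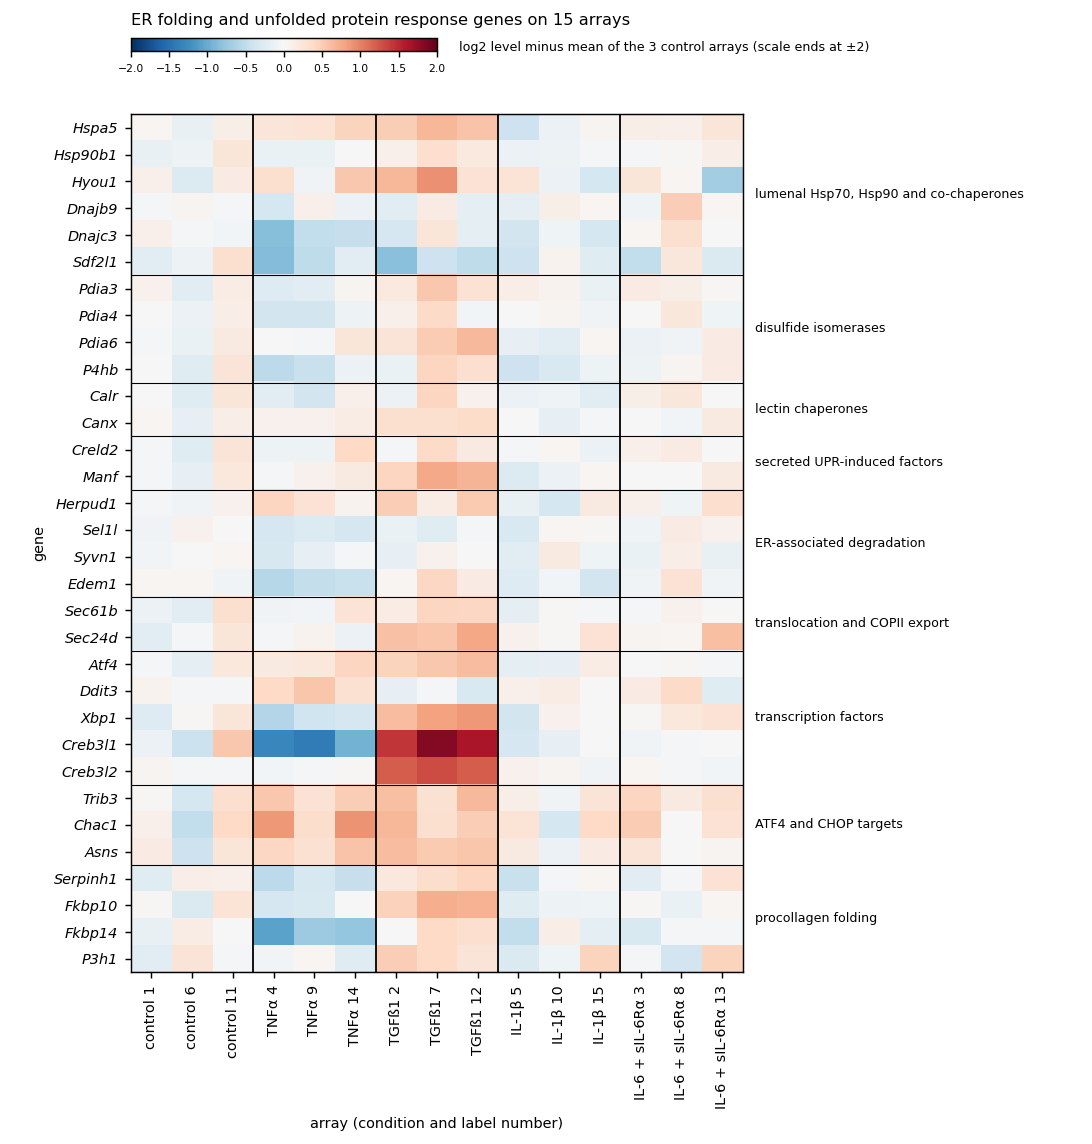
Level of each of the 32 members (rows, grouped by role) on each of the 15 arrays (columns), drawn as the log2 difference from the mean of the 3 control arrays. *Creb3l1* is the darkest row in both directions, lower on the 3 TNFα arrays and higher on the 3 TGFß1 arrays. The IL-1β and IL-6 columns are mostly pale, with exceptions such as *Hyou1*, lower, and *Sec24d*, higher, on IL-6 13.

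The arrays of a group also shifted together across the list. Control 11 gave the highest of the 3 control values for 23 of 32 members and control 6 the lowest for 19. TNFα 14 was the highest TNFα array for 23 members, TGFß1 7 the highest TGFß1 array for 20. Control 11, TNFα 14 and TGFß1 7 lay on the first slide and control 6 on the second. With IL-1β and IL-6 the array most often highest, 15 and 13, for 14 members each, lay on the second slide. The part of slide in these shifts was not tested. The median SD within a group was 0.20 for controls, 0.15 for TNFα, 0.17 for TGFß1, 0.16 for IL-1β and 0.14 for IL-6 (n = 3 each). The members are therefore not independent readings. Without control 11, 10 members were called with TGFß1, and without control 6, 4 were.

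The transcription factors held the largest changes. *Creb3l1*, whose product is cut from the ER membrane and is known for driving type I collagen in bone, read 1.43, 1.13 and 2.10 in controls, 0.25, 0.15 and 0.61 with TNFα, and 2.99, 3.39 and 3.18 with TGFß1. Neither treated group overlapped the controls, and the treated groups stood on opposite sides of them. With TNFα it fell by 1.22 ± 0.22 (log2 fold-change ± SE, q-value 0.00292), and with TGFß1 it rose by 1.64 ± 0.22 (q-value 0.000228), a 3.11-fold rise. Both calls were made with slide in the model and with each control or treated array left out in turn. The IL-1β arrays read 1.22, 1.39 and 1.57 and the IL-6 arrays 1.48, 1.52 and 1.55, all within the span of the controls.

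*Creb3l2*, the closest relative of *Creb3l1* and known for inducing export machinery in cartilage, responded to TGFß1 and not measurably to the other cytokines. Controls read 1.24, 1.16 and 1.15, TNFα arrays 1.13, 1.16 and 1.21, and TGFß1 arrays 2.39, 2.49 and 2.40. The TGFß1 arrays stood clear of the other 12 arrays, whose values lay between 1.11 and 1.27. The rise with TGFß1 was 1.24 ± 0.09 on the log2 scale (q-value 2.82e-06), 2.37-fold, and the difference with TNFα was -0.02 with a 95% confidence interval of -0.21 to 0.17.

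*Xbp1*, the factor activated when IRE1 splices its mRNA, read 4.82, 5.10 and 5.32 in controls, 4.49, 4.69 and 4.75 with TNFα, and 5.69, 5.88 and 5.95 with TGFß1. Here too the TNFα arrays lay below every control and the TGFß1 arrays above. It rose with TGFß1 by 0.76 ± 0.16 (q-value 0.00445). Of its other 2 probes, at 0.51 and 0.60, 1 was called. Under quantile normalization the value of the main probe was 0.56 and was not called. With TNFα the main probe gave -0.44 (q-value 0.0958), while its other 2 probes, at -0.61 and -0.68, were both called lower. Where these probes lie on the transcript is not given in the sources used here, so total *Xbp1* is described and spliced and unspliced forms were not told apart.

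*Atf4*, the factor translated when PERK or another eIF2α kinase is active, read 7.98, 7.84 and 8.22 in controls and 8.46, 8.56 and 8.63 with TGFß1. The TGFß1 arrays lay above every control, at 0.54 ± 0.13 (q-value 0.0102), a 1.45-fold difference under the fold criterion, while its other probe was called at 0.67. With TNFα, *Atf4* stood at 0.27 (q-value 0.21). *Ddit3*, which encodes CHOP, read 2.62, 2.52 and 2.54 in controls, 2.96, 3.11 and 2.86 with TNFα, and 2.40, 2.54 and 2.25 with TGFß1. The TNFα arrays were above every control, at 0.42 (q-value 0.0878), and TGFß1 gave -0.16. Neither was called.

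**Figure D2:**
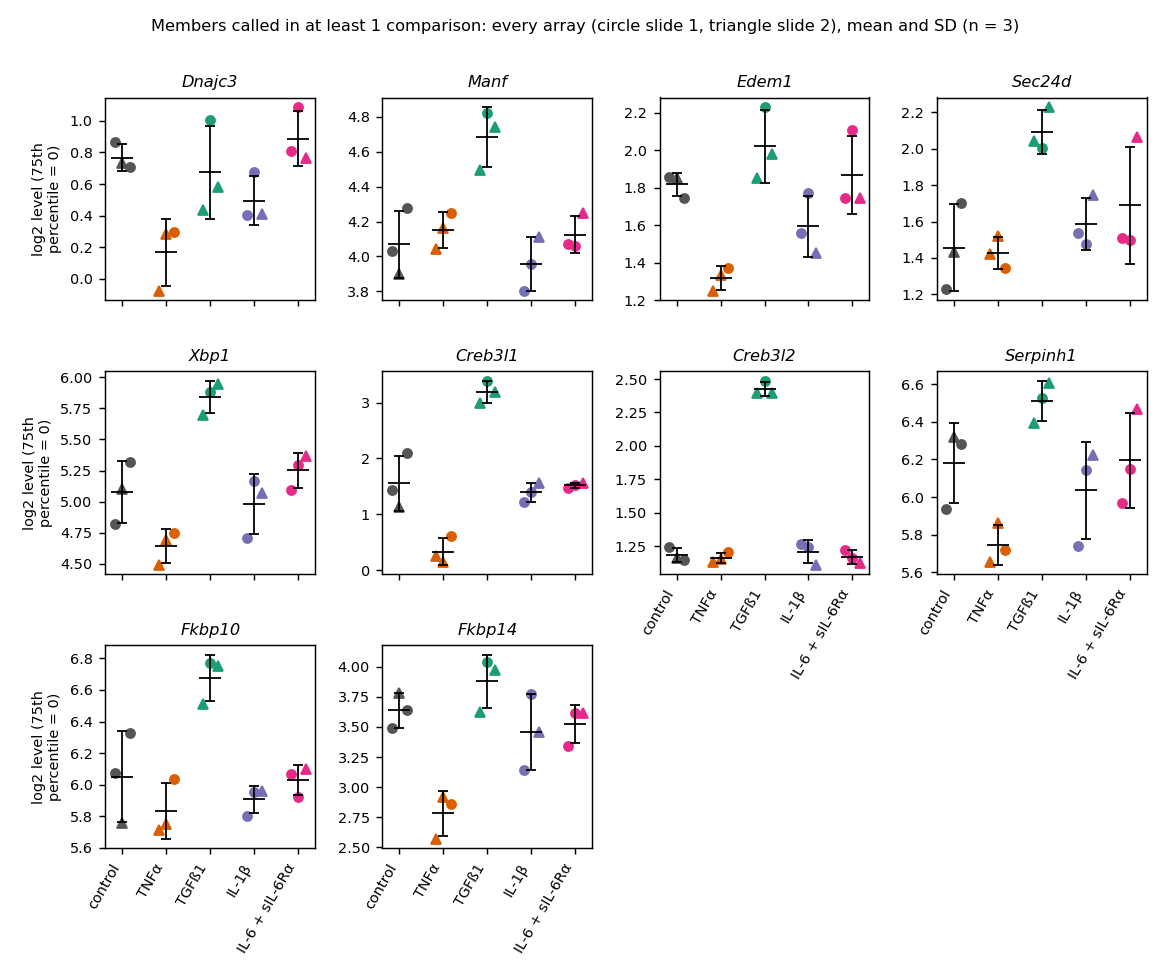
Log2 level (75th percentile of the array = 0) of the 10 members called in at least 1 comparison, with every array as a point (circle for slide 1, triangle for slide 2) and the mean and SD of each group (n = 3). The vertical axes differ between panels and do not start at 0. *Creb3l2* separates the TGFß1 arrays from the other 12, and *Creb3l1*, *Xbp1* and *Fkbp14* have their lowest values on TNFα arrays.

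The targets of ATF4 and CHOP, *Trib3*, *Chac1* and *Asns*, were fitted above control with every cytokine. In the model without covariates 0 of 3 was called in any comparison with control. Within the first slide, which leaves out control 6, the differences with IL-1β were below 0, at -0.15, -0.29 and -0.17 in that order. Those with IL-6 were 0.13, 0.00 and -0.08. The direction with IL-1β and IL-6 thus depended on the second slide. *Chac1*, a glutathione-degrading enzyme, read 3.90, 3.31 and 4.20 in controls and 4.67, 4.16 and 4.70 with TNFα. The groups overlapped because TNFα 9 lay just under control 11, and the difference was 0.71 ± 0.26 (q-value 0.0958). With slide and the run of label numbers in the model it was 0.75 and was called (q-value 0.00107). *Asns*, the asparagine synthetase, read 6.37, 5.79 and 6.44 in controls and 6.82, 6.73 and 6.75 with TGFß1, all above the controls. The difference of 0.57 ± 0.16 (q-value 0.0254) was just under the fold criterion. With slide in the model it was 0.61 and was called, as was its other probe at 0.82. *Trib3*, a pseudokinase that restrains ATF4 and Akt signalling, gave 0.44 with TNFα (q-value 0.115) and 0.52 with TGFß1 (q-value 0.042, fold-change 1.43), and was called in 1 and 2 of 6 fits that left out an array. For these genes control 6, the only control on the second slide, was the lowest array of all 15. The TGFß1 difference of *Asns* was 0.32 within the first slide and 1.00 within the second. That of *Trib3* was 0.12 and 0.98, and that of *Chac1* 0.07 and 1.07. Most of the TGFß1 difference of *Trib3* and *Chac1* thus came from the second slide.

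Of the 6 lumenal chaperones and co-chaperones, 0 were called with TGFß1 and 1 with TNFα. *Hspa5*, which encodes BiP, the Hsp70 of the ER and the standard marker of the response, read 6.65, 6.47 and 6.73 in controls, 6.86, 6.89 and 7.05 with TNFα, and 7.11, 7.28 and 7.18 with TGFß1. Both treated groups lay above every control. The TGFß1 difference of 0.58 ± 0.13 (q-value 0.00679) was 1.49-fold, just under the fold criterion, and both other probes were called, at 0.63 and 0.66. With slide and run in the model the main probe was called too (0.59, q-value 0.000906). With TNFα it was 0.32 (q-value 0.13).

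*Hsp90b1*, the ER Hsp90, stood at 0.21 with TGFß1 and -0.08 with TNFα. *Hyou1*, the large nucleotide exchange factor of BiP, was a dim probe with a wide spread. It read -1.72, -2.09 and -1.65 in controls and -1.16, -0.91 and -1.54 with TGFß1, with no overlap. The difference of 0.62 ± 0.26 was not called (q-value 0.11), but with slide in the model it was 0.79 and was called (q-value 0.00307). Within the slides it was 0.77 and 0.74. Of its other 2 probes, 1 was called.

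Among the co-chaperones, *Dnajc3*, a J-protein of BiP also known as an inhibitor of PERK, read 0.86, 0.73 and 0.71 in controls and -0.08, 0.28 and 0.30 with TNFα, with no overlap. It fell by 0.60 ± 0.16 (q-value 0.0313), which is barely past the fold criterion. With slide in the model the value was -0.53 and was not called, and the call was kept in 1 of 6 fits that left out an array. *Sdf2l1*, a partner of the J-protein ERdj3, stood at -0.53 with TNFα (q-value 0.164) and at -0.59 with TGFß1 (q-value 0.0841). It was the lowest member fitted with TGFß1. *Dnajb9*, a J-protein that binds IRE1, stood at -0.12 and -0.07 on its main probe, but its other probe stood at 0.46 and 0.70, uncalled, so no direction is given for it.

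Of the 4 protein disulfide isomerases none was called against control, although all 4 were fitted higher with TGFß1 and 1 of 4 with TNFα. *Pdia6* read 6.32, 6.22 and 6.54 in controls and 6.61, 6.86 and 7.00 with TGFß1, at 0.47 ± 0.14 (q-value 0.0298, fold-change 1.38). *Pdia3*, which serves glycoproteins held by the lectin chaperones, stood at 0.34 with TGFß1 (q-value 0.0894) and -0.14 with TNFα. *P4hb*, also the β subunit of the collagen prolyl 4-hydroxylase, stood at 0.21 and -0.36, and *Pdia4* at 0.14 and -0.28, with the TGFß1 value first.

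The lectin chaperones hold glycoproteins until they are folded. *Canx*, the membrane-bound calnexin, read 6.22, 6.02 and 6.31 in controls and 6.51, 6.50 and 6.55 with TGFß1, at 0.34 ± 0.10 (q-value 0.0325, fold-change 1.26), while its other probe stood at 0.02. Its soluble counterpart *Calr* stood at 0.13 with TGFß1 and -0.15 with TNFα.

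Among factors that are secreted under ER stress, *Manf* read 4.03, 3.90 and 4.28 in controls and 4.49, 4.82 and 4.74 with TGFß1. The groups did not overlap, and the rise was 0.62 ± 0.13 (q-value 0.00592), with its other probe called at 0.63. The call was lost without control 6 or TGFß1 7 and under quantile normalization, where the value was 0.47. *Creld2* stood at 0.18 with TGFß1 and 0.07 with TNFα.

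In ER-associated degradation no member was called against control. *Edem1*, which hands misfolded glycoproteins to disposal, read 1.86, 1.85 and 1.75 in controls and 1.25, 1.34 and 1.37 with TNFα, well apart. The difference of -0.50 ± 0.14 (q-value 0.0304) was 1.41-fold, and its other probe stood at -0.35. *Sel1l* and *Syvn1*, which together form the core of the HRD1 ubiquitin ligase, stood at -0.32 (q-value 0.101) and -0.17 with TNFα and at -0.14 and -0.03 with TGFß1. *Herpud1*, which carries elements of both branches, stood at 0.26 with TNFα and 0.39 with TGFß1 (q-value 0.108), while its other probe stood at 0.02 and 0.11.

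Translocation and export were represented by a gene each. *Sec24d*, a cargo adaptor of the COPII coat that carries procollagen out of the ER, read 1.23, 1.43 and 1.70 in controls, 1.42, 1.52 and 1.34 with TNFα, and 2.04, 2.01 and 2.23 with TGFß1. The TGFß1 arrays lay above every control, and the rise was 0.64 ± 0.17 (q-value 0.0155). With slide in the model it was 0.57, under the fold criterion, and the call was lost without control 1 or TGFß1 12. *Sec61b*, a subunit of the translocation channel, stood at 0.33 with TGFß1 (q-value 0.139) and 0.06 with TNFα.

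The procollagen-folding genes were all fitted higher with TGFß1 and all lower with TNFα, with medians of 0.36 and -0.33. *Fkbp14*, a prolyl isomerase of the ER that binds collagen, read 3.49, 3.79 and 3.64 in controls and 2.57, 2.92 and 2.86 with TNFα. The groups were far apart, and it fell by 0.86 ± 0.18 (q-value 0.00708), with its other probe called at -1.04. Slide in the model gave -0.86 as well, and the call was kept in 6 of 6 fits that left out an array. With TGFß1 it stood at 0.24 (q-value 0.35).

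*Fkbp10*, a larger prolyl isomerase needed for collagen crosslinking, read 6.07, 5.76 and 6.33 in controls and 6.51, 6.77 and 6.75 with TGFß1. All TGFß1 arrays were above every control, and it rose by 0.63 ± 0.15 (q-value 0.00962), or by 0.67 with slide in the model. Under quantile normalization the value was 0.40 and was not called, and the call was also lost without control 6 or TGFß1 7. *Serpinh1*, which encodes HSP47, the collagen-specific chaperone, read 5.94, 6.32 and 6.28 in controls, 5.65, 5.86 and 5.72 with TNFα, and 6.39, 6.53 and 6.61 with TGFß1. The treated groups lay on either side of the controls, at -0.44 (q-value 0.113) and 0.33 (q-value 0.172), and neither was called. *P3h1*, the collagen prolyl 3-hydroxylase, stood on its main probe at -0.08 with TNFα and 0.38 with TGFß1. With TNFα its other probe lay further below control and was called, at -0.77.

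**Figure D3:**
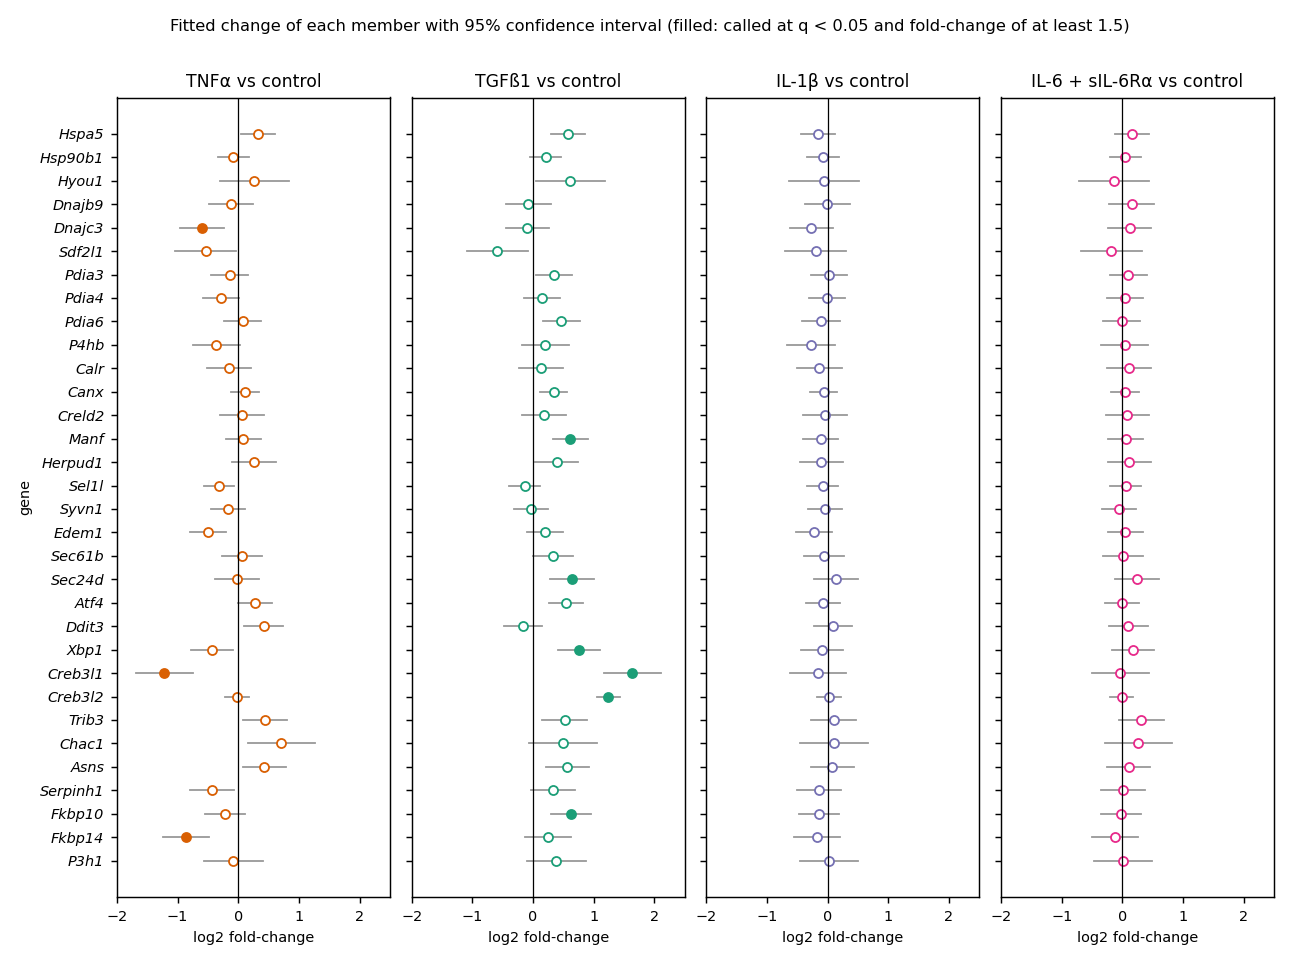
Fitted log2 fold-change of each member against control (points) with its 95% confidence interval (lines) for the 4 cytokine treatments, from 1 model over 15 arrays. Filled points are called, and they number 3 with TNFα, 6 with TGFß1 and 0 with IL-1β and IL-6.

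Some of these calls depended on slide. With slide in the model 2 members were called with TNFα, beside 12.0% of all probes, and 7 with TGFß1, beside 20.3%. *Dnajc3* left the TNFα list. *Sec24d* left the TGFß1 list and *Hyou1* and *Asns* joined it. Counted without any test, 3 members had all TNFα arrays above all controls and 7 had all below, where 28.9% of all probes did not overlap in either direction. With TGFß1 the numbers were 16 above and 1 below, where 38.8% of probes did not overlap.

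TGFß1 and TNFα were then compared directly, the test that asks whether the responses differ. Here 8 of 32 members were called (25.0%), all higher with TGFß1, where 11.8% of all probes were called in either direction and 5.17% higher. They were *Creb3l1*, *Creb3l2*, *Xbp1*, *Fkbp14*, *Fkbp10*, *Serpinh1*, *Edem1* and *Sec24d*. The largest difference was that of *Creb3l1*, at 2.85 ± 0.22 or 7.22-fold (q-value 2.28e-06). *Creb3l2* followed at 1.26 ± 0.09 (q-value 1.39e-06), *Xbp1* at 1.20 ± 0.16 (q-value 0.000204) and *Fkbp14* at 1.10 ± 0.18 (q-value 0.000900). *Fkbp10* stood at 0.84 (q-value 0.00186), *Serpinh1* at 0.77 (q-value 0.00702) and *Edem1* at 0.70 (q-value 0.00348), where its other probe, at 0.41, was not called. For *Serpinh1* and *Edem1* neither cytokine was called against control, and the difference arose between values on opposite sides of it. *Sec24d* stood at 0.67 (q-value 0.0163), and its call was lost without TGFß1 12 or TNFα 14.

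All other members were fitted below these 8. *P4hb* fell just short at 0.57 (q-value 0.0503). *Manf* at 0.53 (q-value 0.0166) and *Pdia3* at 0.49 (q-value 0.0305) passed the q-value and not the fold criterion. On their other probes *Manf*, at 0.59, and *P3h1*, at 1.01 where the main probe stood at 0.47, were called. *Ddit3* was the member fitted lowest, at -0.58 ± 0.15 (q-value 0.0171), a fold-change just under 1.5, with the TGFß1 arrays all below the TNFα arrays. The ATF4 and CHOP targets did not separate the cytokines: *Trib3* stood at 0.08 (95% confidence interval -0.29 to 0.45), *Asns* at 0.14 (-0.22 to 0.50) and *Chac1* at -0.22 (-0.77 to 0.34). Over the list, 29 of 32 members were fitted higher with TGFß1 (54.7% of probes), with a median of 0.32 beside 0.04 over all probes. Of the members, 19 had all TGFß1 arrays above all TNFα arrays and 1 had all below, where 34.2% of probes did not overlap. *Ddit3* was called lower in 3 of 6 fits that left out an array. With slide in the model 8 were called, beside 13.6% of probes.

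The responses were set beside the promoter sequences. Of the 6 members called with TGFß1, 3 had a promoter window (*Creb3l2*, *Xbp1* and *Sec24d*), and none of these 3 windows held the ER stress element. Of the 8 members with the printed element, 0 were called with TGFß1 against control and 0 between TGFß1 and TNFα, where 17.9% and 11.8% of all probes were called, while *Dnajc3* was called with TNFα. The count with TGFß1 rests on the main probe of *Hspa5*, whose other probes were called and which was itself called with slide and run in the model (0.59). Their median log2 fold-change with TGFß1 was 0.19, from -0.09 to 0.58, and 3 of them, *Hspa5*, *Pdia6* and *Canx*, had a q-value below the threshold without the fold. Between TGFß1 and TNFα all 8 were fitted higher, from 0.11 to 0.51, with a median of 0.27. Among the 20 members with a promoter window and no such element, 3 were called with TGFß1 and 6 between TGFß1 and TNFα, with medians of 0.34 and 0.35. The 4 members with the C/EBP-ATF element had medians of 0.44 with TNFα, 0.51 with TGFß1 and 0.10 between them. They include *Trib3*, *Chac1* and *Asns*, whose TGFß1 differences were larger on the slide with the low control 6. These are counts over few genes of a chosen list, and the differences between the sets were not tested.

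**Figure D4:**
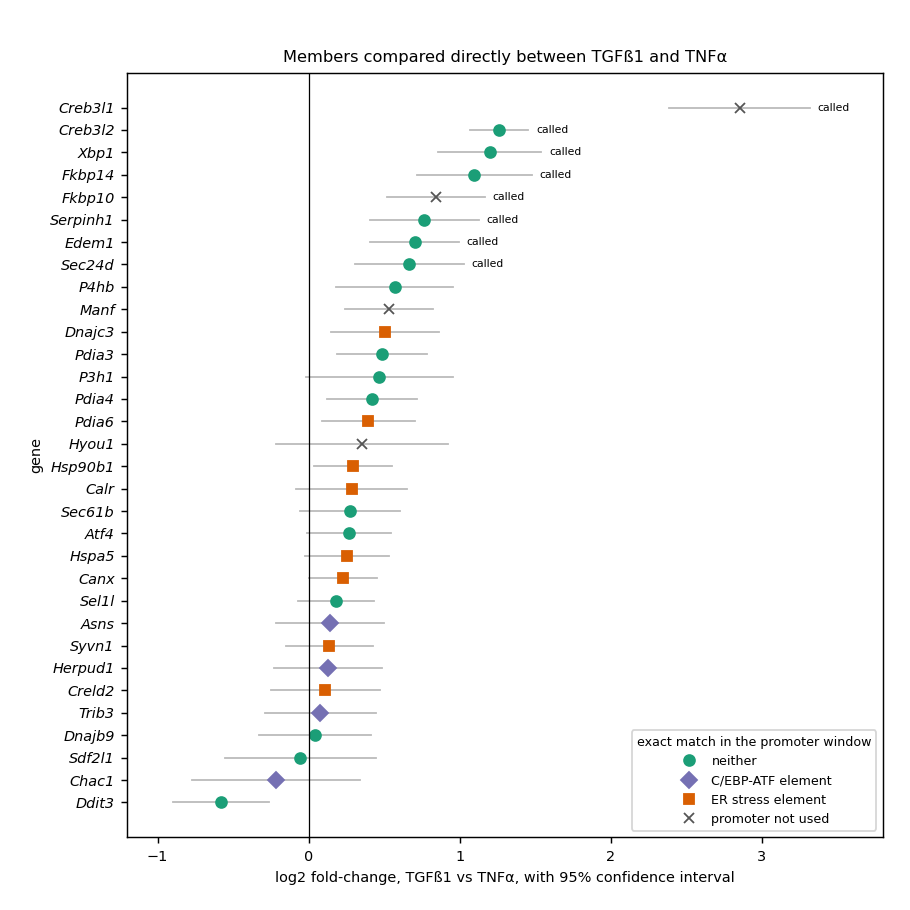
Fitted log2 fold-change between TGFß1 and TNFα for each member, with 95% confidence intervals, ordered by size and marked by the element matched in the promoter window. The 8 called members lie at the top, from 0.67 to 2.85, and the members with the ER stress element (squares) lie between 0.11 and 0.51.

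No change of a member was detected with IL-1β or with IL-6 and sIL-6Rα. By limma 0 members were called with either, and 0 of 32 had an unadjusted p below 0.05 in either comparison, beside 3.61% of all probes with IL-1β and 3.18% with IL-6. The array-wide shares called were 0.232% and 0.0580%. Fitted changes ran from -0.28 (*P4hb*) to 0.13 (*Sec24d*) with IL-1β and from -0.19 (*Sdf2l1*) to 0.31 (*Trib3*) with IL-6. The medians were -0.07 and 0.05, beside 0.00 and 0.00 over all probes. The 95% confidence intervals of all members together spanned -0.70 to 0.66 with IL-1β and -0.71 to 0.82 with IL-6. These intervals are unadjusted, whereas a call also needed a q-value below 0.05 over all probes tested. Changes past the fold criterion could thus have gone uncalled, and not only for the noisiest probes. For *Hspa5* the interval was -0.44 to 0.12 with IL-1β and -0.12 to 0.44 with IL-6, and for *Creb3l2* it was -0.17 to 0.22 and -0.21 to 0.18. With IL-1β 0 members had all arrays above all controls and 1 had all below, where 5.32% of probes did not overlap. With IL-6 none stood apart on either side, beside 5.04%.

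Between IL-1β and TNFα, 2 members were called, *Creb3l1* at 1.06 ± 0.22 (q-value 0.0136) and *Fkbp14* at 0.68 ± 0.18 (q-value 0.0426), both higher with IL-1β, beside 4.69% of all probes. Both had fallen with TNFα against control, and the comparisons share the TNFα arrays. The pair was not stable to the arrays used: without IL-1β 10, TNFα 4 or TNFα 9 the count was 0, without TNFα 14 only *Creb3l1* was called, and without IL-1β 15 neither of the pair was called and *Hspa5* was, lower with IL-1β. The other probe of *Fkbp14*, at 0.80, was not called.

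A further 119 genes of the same pathways were read in the same way, and 114 of them were tested. With TNFα 7 were called (6.14%), below the share of all probes given above, 4 higher and 3 lower. The higher ones included *Stc2*, a secreted glycoprotein regulated by ATF4, at 2.20 ± 0.50 (q-value 0.0119), *Ern1*, which encodes the sensor IRE1, at 1.35 ± 0.22 (q-value 0.00147), and *Atf3*, a stress-induced repressor, at 1.02 ± 0.31 (q-value 0.0489). The lower ones were *Kdelr3*, a receptor that returns escaped ER proteins, at -0.89 ± 0.21, the COPII coat gene *Sec23a* at -0.60 ± 0.14, and the prolyl isomerase *Fkbp7* at -0.59 ± 0.13. With slide in the model *Fkbp7* stood at -0.58, under the fold criterion. *Ern1* rose on the arrays where *Xbp1*, the substrate of IRE1, was fitted below control on all 3 of its probes, though its main probe was not called.

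With TGFß1 12 of the 114 were called (10.5%), 11 higher and 1 lower. Of all probes, 17.9% were called in either direction and 7.51% higher. *Ddit4*, an mTOR inhibitor induced by stress, rose by 1.43 ± 0.13, *Kdelr3* by 1.15 ± 0.21 and *Ern1* by 1.06 ± 0.22. *Ern1* therefore rose with both cytokines, whereas *Xbp1* was fitted above control with TGFß1 and below it with TNFα. *Creb3l4*, another member of the CREB3 family, fell by 0.93 ± 0.19, opposite to *Creb3l1* and *Creb3l2*. The medians of the 114 genes were -0.02 with TNFα and 0.22 with TGFß1. Between TGFß1 and TNFα 12 were called (10.5%), 11 higher. Of all probes, 11.8% were called in either direction and 5.17% higher. Among the 12 were 5 of 21 genes of COPII and ER-Golgi traffic: *Kdelr3* at 2.04, *Sec23a* at 1.10, *Surf4* at 0.73, *Mcfd2* at 0.69 and *Sec31a* at 0.63. These 5 were named after their values were seen. All 21 of that group were fitted higher with TGFß1 than with TNFα, with a median of 0.42. Over all probes, 54.7% were fitted higher and the median was 0.04. By limma 0 of the 114 were called with IL-1β or IL-6 against control, and 0 had an unadjusted p below 0.05.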

How the data were processed

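Mouse gene expression was measured on 15 one-colour arrays, 3 in each of 5 groups taken from the labels. The authors deposited spot intensity values from Agilent Feature Extraction 10.7.3.1, background-subtracted and detrended and not normalized between arrays. The deposited series table held the same intensity values (largest difference 0) and no column of another sample. Control spots and outlier flags were left out, spots of a probe were averaged, and log2 intensity minus each array's 75th percentile was taken. A probe was tested where some group had all its arrays well above background for it (29334 of 56605). A model over all 15 arrays was fitted with limma 3.58.1 (lmFit, eBayes, R 4.3.3), with no covariate, and q-values are Benjamini-Hochberg over all probes tested. The script was tested on simulated data. Depth does not apply to arrays, and their number limits the precision. No spot was saturated. The main probe of a gene is its brightest probe. All 32 members are named, and of the other pathway genes the 3 largest called rises and falls against control. Members and lists were chosen with earlier results of these data known. Alternatives were slide, slide with the run of label numbers (1 to 5, 6 to 10, 11 to 15), scaling, background correction, filter, probe summary, fold criterion and leaving out arrays. Array names are those of the design, matched through RefSeq. No protein sequences were used.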

Additional observations from a re-analysis of the deposited data

How the results depend on the processing

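No call reversed its direction under any alternative. With TNFα 3 members were called, from 2 to 3 with an array left out and 1 at a fold-change of at least 2. With TGFß1 the count of 6 became 2 with quantile normalization, 10 with the mean of all probes of a gene, 12 with no fold criterion and 2 at a fold-change of at least 2, and ranged from 4 to 10 with an array left out. Between TGFß1 and TNFα the count of 8 became 4 at a fold-change of at least 2 and ranged from 7 to 11. Between IL-1β and TNFα the count of 2 became 1 without a filter on dim probes, 0 with only the arrays compared and their controls, and 1 at a fold-change of at least 2, and ranged from 0 to 2. With IL-1β and IL-6 against control it was 0 throughout. Of 19 single calls, 17 held with slide in the model, 17 with slide and run, 15 with quantile normalization and 18 with normexp. Where a call was lost its cause was not tested. Over all probes, 5250 were called with TGFß1 and 3472 with normexp, and the counts with IL-1β and IL-6, 68 and 17, became 106 and 37 with slide and 323 and 231 with slide and run. No array carries a replicate number shared between groups, so no paired fit was made beyond the run of label numbers.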
